A study of Mus musculus with 12 samples.

Results

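NRF2, the product of Nfe2l2, is a transcription factor that switches on genes against oxidative and electrophilic stress, and 10 genes around it were followed across 12 mouse liver libraries. They were taken by symbol from a fixed list of Nfe2l2, Keap1, the glutathione synthesis genes Gclc, Gclm and Gss, the reductase gene Gsr, and the NRF2 targets Nqo1, Txnrd1, Srxn1 and Hmox1, leaving out glutathione transferases. All 10 were found among the 53465 Ensembl gene IDs of the count table, and all 10 were among the 14778 genes that passed the filter on low counts. The livers crossed genotype with diet in 4 groups of 3 libraries. Control mice are labelled Pld1-Flox and, in a second label, WT. The others are labelled Pld1(H)-KO, are called hepatocyte-specific Pld1 knockouts (KO) in the series description, and carry a genotype label that says knockdown. Both genotypes received either a normal chow diet or HFD, a high-fat diet, which per the series description lasted 20 weeks. The sources used here give no strain, sex, age or Cre driver. They do not say that the 3 libraries per group are separate animals. The p-values therefore set group differences only against the spread among these libraries, which may be technical variation.

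KEAP1 holds NRF2 in the cytoplasm and hands it to a CUL3 ubiquitin ligase, so that little NRF2 protein is present in unstressed cells. Oxidants and electrophiles modify KEAP1, newly made NRF2 then reaches the nucleus, pairs with a small MAF protein and binds antioxidant response elements near its targets. In liver these targets make and recycle glutathione and thioredoxin, the main thiol buffers of hepatocytes. NRF2 activity is set largely at the protein level, which RNA counts do not measure.

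Libraries held 18215008 to 22378180 counts. Levels are counts scaled to library size (CPM, with TMM factors), with errors as SD over n = 3 libraries. Each fold change, with its standard error (SE) and adjusted p, is from a fit of all 12 libraries tested by edgeR's quasi-likelihood method, with Benjamini-Hochberg adjustment over 14778 genes and a threshold of 0.05. The targeted gene Pld1 was at 11.3, 11.3 and 9.07 CPM in controls and 3.95, 3.45 and 4.67 CPM in KO livers fed chow. On HFD it was at 7.72, 6.48 and 7.19 CPM in controls and 2.91, 1.93 and 2.94 CPM in KO livers, so KO and control libraries did not overlap on either diet. Of 6 hepatocyte markers 5 were found in the table under the symbol given, and they summed to 80266 to 98905 CPM, the lowest sums being in KO livers fed chow and the highest in KO livers fed HFD. All 5 were higher in KO than in control livers fed HFD, where 16.7% of all tested genes were higher. On chow 2 were higher and 3 lower in KO livers, beside 15.8% and 15.3% of all genes. In whole liver, fewer cells of a type and less RNA per cell cannot be told apart.

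Across the groups, the 10 genes split by how they behaved with HFD. Relative to controls fed HFD, KO livers held less Nfe2l2, Gclc, Gss, Nqo1, Srxn1 and Hmox1 RNA, which is 6 of 10 lower and 0 higher, where 15.6% of all tested genes were lower and 16.7% higher. After removal of a trend of fold changes on transcript length and GC content, described below with its values, the count was 5 lower and 4 higher. The Gss call was then lost, and 35.9% of all genes passed in either direction. Nqo1 and Gclc fell most, to 58.8% and 62.6% of the control level. Keap1, Gclm, Gsr and Txnrd1 did not pass the threshold in that comparison. The median log2 fold change of the 10 was -0.28, beside -0.007 over all tested genes. On chow the KO comparison was mixed, with 3 lower (Nfe2l2, Gclc, Gclm) and 3 higher (Gss, Txnrd1, Hmox1), where 31.2% of all genes passed, 15.3% lower and 15.8% higher.

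**Figure D1:**
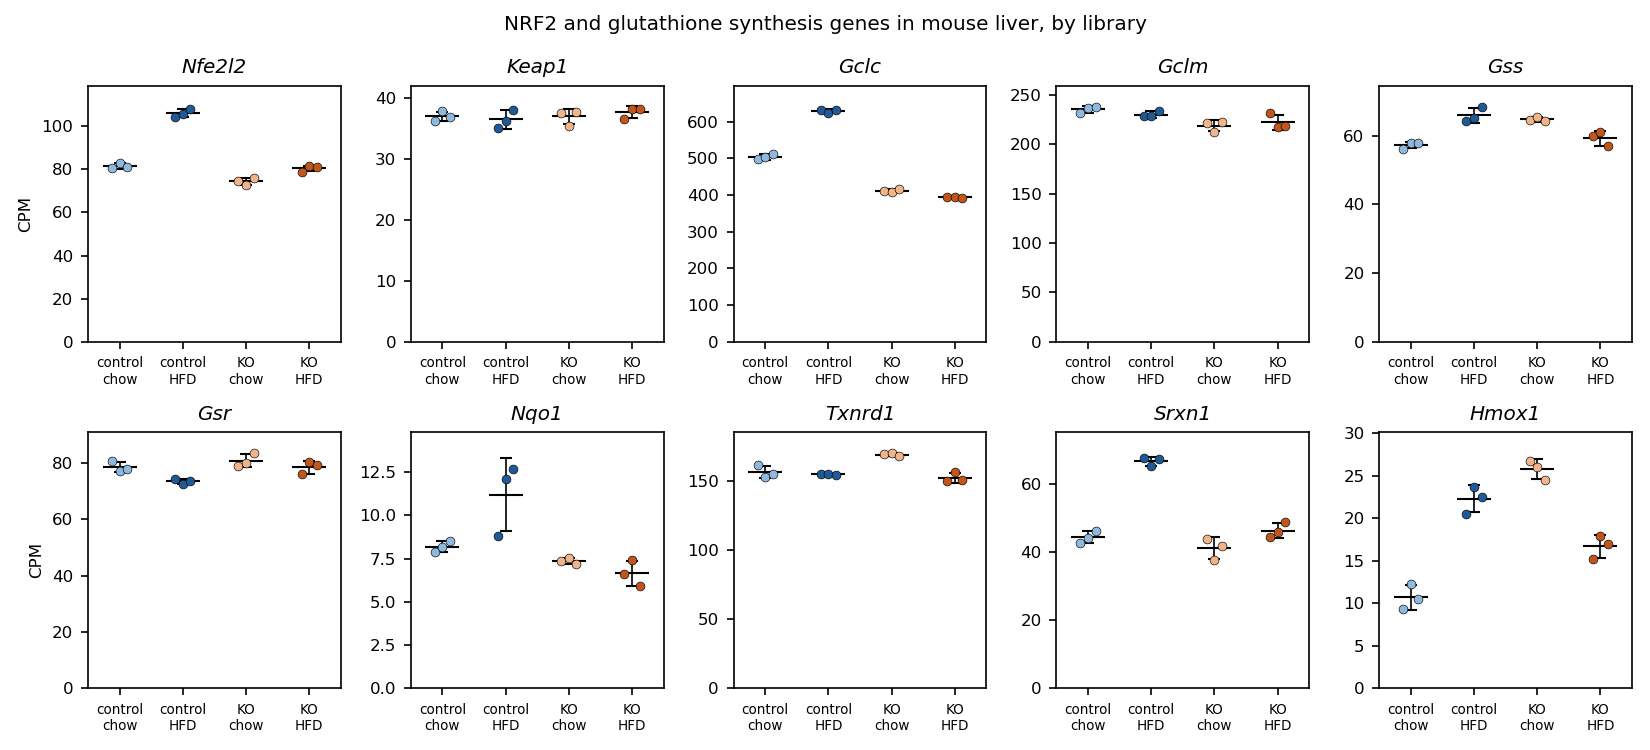
Level of each of the 10 genes in every library, in CPM on linear axes that start at 0. Points are the 3 libraries of a group, and the bars give the mean and SD. Nfe2l2, Gclc, Srxn1 and Nqo1 are highest in the 3 control livers fed HFD, Hmox1 is highest in KO livers fed chow, and Keap1 lies between 35.0 and 38.2 CPM in all libraries.

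The upstream sequences of 5 of these genes are shown because the antioxidant response element is the DNA word that links NRF2 to its targets. The core TGACNNNGC was searched on both strands in RefSeq promoter windows (build GRCm38.p6) of 300 bases, from 250 before to 50 after a gene's start. It was present in 12.4% of 32851 windows and, counting a gene once, in 14.0% of 27025 genes. Windows were found for 7 of the 10 genes, all but Gclc, Gsr and Hmox1, and 4 of the 7 held a match: Nfe2l2, Gclm, Srxn1 and, at the second of 3 starts, Txnrd1. The 250 bases before the start follow, 5′ to 3′ on the gene's own strand, with any match in capitals. They lie at chr2:75704664-75704913 on the minus strand (Nfe2l2), chr3:122245307-122245556 on the plus strand (Gclm), chr10:82858956-82859205 on the plus strand (Txnrd1), chr2:152105274-152105523 on the plus strand (Srxn1) and chr8:107403206-107403455 on the minus strand (Nqo1).
Nfe2l2: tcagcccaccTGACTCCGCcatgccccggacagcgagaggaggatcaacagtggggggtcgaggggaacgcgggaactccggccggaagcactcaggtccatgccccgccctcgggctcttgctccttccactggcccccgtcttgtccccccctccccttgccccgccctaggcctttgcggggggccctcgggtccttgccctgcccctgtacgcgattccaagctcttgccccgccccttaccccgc
Gclm: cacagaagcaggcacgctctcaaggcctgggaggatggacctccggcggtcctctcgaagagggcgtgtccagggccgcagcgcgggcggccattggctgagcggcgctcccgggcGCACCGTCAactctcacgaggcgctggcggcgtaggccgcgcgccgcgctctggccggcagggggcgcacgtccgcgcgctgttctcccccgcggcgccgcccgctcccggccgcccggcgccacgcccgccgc
Txnrd1: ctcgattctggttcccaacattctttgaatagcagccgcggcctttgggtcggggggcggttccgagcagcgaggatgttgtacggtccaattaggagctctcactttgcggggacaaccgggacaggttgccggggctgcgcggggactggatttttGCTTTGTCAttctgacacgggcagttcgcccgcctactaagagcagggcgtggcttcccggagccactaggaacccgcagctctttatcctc
Srxn1: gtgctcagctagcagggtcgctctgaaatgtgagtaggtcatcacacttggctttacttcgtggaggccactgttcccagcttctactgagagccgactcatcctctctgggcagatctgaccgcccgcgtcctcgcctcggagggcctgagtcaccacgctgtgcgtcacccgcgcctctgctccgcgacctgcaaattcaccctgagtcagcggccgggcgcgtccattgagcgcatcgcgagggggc
Nqo1: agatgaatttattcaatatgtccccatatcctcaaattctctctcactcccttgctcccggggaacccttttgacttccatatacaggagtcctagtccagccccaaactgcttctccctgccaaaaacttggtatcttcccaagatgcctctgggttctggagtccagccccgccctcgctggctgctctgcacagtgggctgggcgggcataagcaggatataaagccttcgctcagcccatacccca
The Nfe2l2 match read TGACTCCGC on the gene's strand and began 240 bases before the start. Those of Gclm (TGACGGTGC) and Txnrd1 (TGACAAAGC) were on the opposite strand, with their nearest-to-5′ base 134 and 92 bases before the start. The Srxn1 match (TGACCTAGC, opposite strand) began at base 29 after the start and so is not in the stretch shown, and the Nqo1, Keap1 and Gss windows held none. A match is a run of letters in this window and says nothing of binding. Of these 5 genes, Nfe2l2 and Srxn1 were lower in KO livers fed HFD than in controls fed HFD. Gclm and Txnrd1 did not pass in that comparison, and Nqo1, without a match in its window, was lower.

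Nfe2l2 (ENSMUSG00000015839) stood at 80.6, 83.0 and 81.0 CPM in controls fed chow and at 104, 106 and 108 CPM in controls fed HFD. KO livers had 74.8, 72.7 and 75.8 CPM with chow and 79.0, 81.4 and 81.0 CPM with HFD. The 3 control libraries fed HFD were above all others, and KO livers fed HFD overlapped controls fed chow. Nfe2l2 rose with HFD in controls (log2 fold change 0.38, SE 0.036, adjusted p = 1.52e-10). It was lower in KO livers fed HFD (-0.40, SE 0.036, adjusted p = 8.66e-11) and, by less, with chow (-0.13, SE 0.037, adjusted p = 0.00596). With HFD it rose by 0.11 in KO livers (SE 0.037, adjusted p = 0.0168), a call that was lost without KO_chow replicate 2 or KO_HFD replicate 2 (adjusted p = 0.0883 and 0.0565). The knockout difference with HFD minus that with chow, the interaction, was -0.27 (SE 0.052, adjusted p = 0.000141).

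Keap1 (ENSMUSG00000003308), whose protein is the sensor and adaptor that directs NRF2 to degradation, varied little. It was at 36.9 ± 0.785 CPM in controls fed chow, 36.4 ± 1.51 in controls fed HFD, 36.9 ± 1.25 in KO livers fed chow and 37.6 ± 0.997 in KO livers fed HFD. Each group overlapped the next in the order of their means, and none of the 6 comparisons passed (adjusted p = 0.553 to 0.962). With the length and GC trend removed, Keap1 was higher in KO livers fed HFD (0.15, adjusted p = 0.0226) and its interaction was above 0 (0.21, adjusted p = 0.0282). An antisense gene, Gm16754, shares 510 of its 4693 exon bases and had at most 29 counts in a library.

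Gclc and Gclm encode the catalytic and the modifier subunit of glutamate-cysteine ligase, the rate-limiting enzyme of glutathione synthesis. Gclc passed the threshold in all 6 comparisons and Gclm in 2, in both of which Gclc was lower too. Gclc (ENSMUSG00000032350) was at 497, 503 and 512 CPM in controls fed chow and rose to 633, 624 and 631 CPM in controls fed HFD. In KO livers it was at 411, 408 and 417 CPM with chow and 395, 396 and 391 CPM with HFD. No group overlapped another. Gclc rose by 0.32 with HFD in controls (SE 0.023, adjusted p = 2.24e-13). KO livers were lower with HFD (-0.68, SE 0.023, adjusted p = 1.06e-21) and with chow (-0.29, SE 0.023, adjusted p = 4.34e-12), and the interaction was -0.39 (SE 0.033, adjusted p = 3.24e-11). Between diets KO livers differed by only -0.07 (SE 0.024, adjusted p = 0.029). That small fall was lost without KO_chow replicate 1 or 3 (adjusted p = 0.0615 and 0.107) and without KO_HFD replicate 2 or 3 (0.0578 and 0.0757), as well as with no count filter (0.109) and with the length and GC trend removed (0.214).

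Gclm (ENSMUSG00000028124) was at 232, 236 and 238 CPM in controls fed chow and 228, 228 and 234 CPM with HFD, and in KO livers at 221, 213 and 222 CPM with chow and 231, 218 and 218 CPM with HFD. Every KO library fed chow was below every control library on either diet, and KO livers fed HFD overlapped controls fed HFD and KO livers fed chow. On chow the KO difference was small (-0.10, SE 0.030, adjusted p = 0.0076, and 0.0705 without KO_chow replicate 2). On HFD the KO difference was -0.05 (SE 0.030, adjusted p = 0.232), and with the length and GC trend removed it was 0.11 (adjusted p = 0.00268). Scaled by exon length, the catalytic subunit was the more abundant RNA, at 134 against 37.4 CPM per kilobase in controls fed chow and 105 against 35.3 CPM per kilobase in KO livers fed HFD. Gclm shares 296 of 6291 exon bases with the opposite-strand gene Gm17494, which had at most 13 counts.

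Gss (ENSMUSG00000027610) encodes glutathione synthetase, which adds glycine in the second step. It was at 56.2, 57.9 and 57.8 CPM in controls fed chow, 64.1, 65.1 and 68.3 CPM in controls fed HFD, 64.6, 65.5 and 64.1 CPM in KO livers fed chow and 59.9, 60.9 and 56.9 CPM in KO livers fed HFD. Control livers fed HFD and KO livers fed chow overlapped as the 2 high groups, and the other 2 groups overlapped as the low ones. Gss rose with HFD in controls (0.20, SE 0.042, adjusted p = 0.000245), was higher in KO livers fed chow (0.18, SE 0.043, adjusted p = 0.00151) and lower in KO livers fed HFD (-0.15, SE 0.042, adjusted p = 0.00454). The last call was lost without control_HFD replicate 3 (adjusted p = 0.053) and after removal of the length and GC trend of every library (adjusted p = 0.38, log2 fold change -0.05). The interaction was -0.33 (SE 0.060, adjusted p = 5.44e-05). Acss2, on the opposite strand, shares 395 of the 5915 exon bases of Gss and moved the other way, from 236.0 ± 2.48 to 144 ± 4.96 CPM with HFD in controls, with 184 ± 5.13 and 185 ± 1.75 CPM in KO livers fed chow and HFD. Reads of the shared bases cannot be assigned without strand information, and the sources used here give none.

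**Figure D2:**
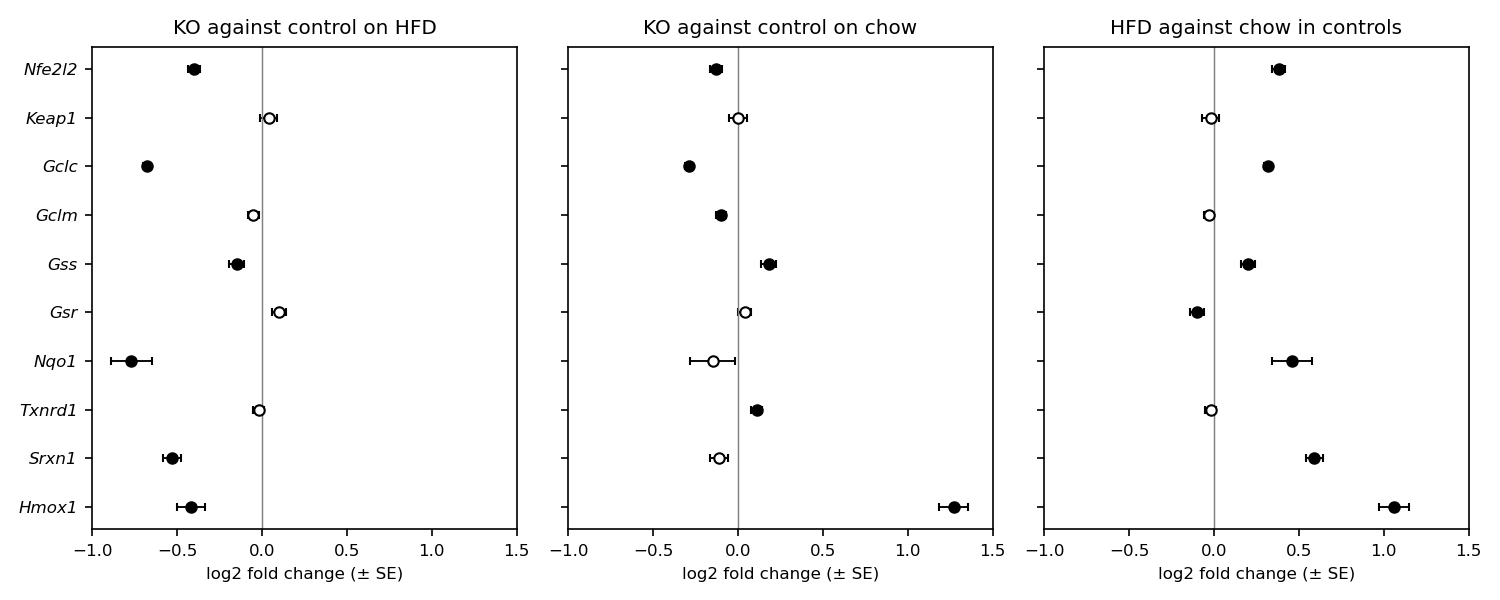
Log2 fold changes with SE of the 10 genes in KO against control livers fed HFD, in KO against control livers fed chow and in HFD against chow in controls. Filled circles passed an adjusted p of 0.05 and open circles did not. The left panel has 6 filled circles, all below 0; in the middle panel Hmox1 stands at 1.27, and in the right panel 6 filled circles are above 0 and Gsr is below.

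Gsr, Txnrd1 and Srxn1 return thiols and peroxiredoxins to their working state. Gsr (ENSMUSG00000031584), glutathione reductase, was at 80.8, 77.3 and 77.9 CPM in controls fed chow and at 74.4, 72.6 and 73.6 CPM in controls fed HFD. In KO livers it was at 79.1, 80.0 and 83.6 CPM with chow and 76.0, 80.4 and 79.2 CPM with HFD. Control livers fed HFD were below every other library, against the direction of Gclc and Nfe2l2, but by little. The fall with HFD in controls (-0.10, SE 0.039, adjusted p = 0.0489) was lost without any single control library, without KO_chow replicate 1 or 2 or without KO_HFD replicate 2, where the adjusted p was 0.0511 to 0.177, with DESeq2's size factors (0.0547) or test (0.0905), with no count filter (0.117) and with the replicate number as a block (0.057). KO livers fed HFD did not pass against controls (0.10, SE 0.039, adjusted p = 0.0604), except without KO_HFD replicate 1 (0.038) and with the length and GC trend removed (0.17, adjusted p = 0.000461).

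Txnrd1 (ENSMUSG00000020250), the cytosolic thioredoxin reductase, was at 162, 153 and 155 CPM in controls fed chow and 155, 155 and 155 CPM in controls fed HFD. KO livers had 169, 170.2 and 168 CPM with chow and 149.9, 157 and 150.5 CPM with HFD. KO livers fed chow were above every other library, and the other 3 groups overlapped. The KO difference was 0.11 with chow (SE 0.031, adjusted p = 0.00589) and -0.02 with HFD (SE 0.032, adjusted p = 0.623), the latter turning to 0.09 (adjusted p = 0.0248) with the length and GC trend removed. Their difference, the interaction, was -0.13 (SE 0.044, adjusted p = 0.0203) and passed neither without control_chow replicate 2 or 3 (adjusted p = 0.0666 and 0.0519) nor with the length and GC trend removed (0.95). In KO livers Txnrd1 was 0.15 lower with HFD than with chow on the log2 scale (log2 fold change -0.15, SE 0.031, adjusted p = 0.000227).

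Srxn1 (ENSMUSG00000032802), sulfiredoxin, repairs over-oxidised peroxiredoxins. It was at 42.8, 44.0 and 46.2 CPM in controls fed chow, 67.5, 65.2 and 67.4 CPM in controls fed HFD, 43.9, 37.6 and 41.7 CPM in KO livers fed chow and 44.4, 45.9 and 48.7 CPM in KO livers fed HFD. Only the control libraries fed HFD stood apart, above all 9 others. Srxn1 rose 1.5-fold with HFD in controls (log2 fold change 0.59, SE 0.051, adjusted p = 1.61e-11) and by 0.18 in KO livers (SE 0.054, adjusted p = 0.00947). The rise in KO livers was lost without KO_chow replicate 2 or KO_HFD replicate 3 (adjusted p = 0.124 and 0.0668). KO livers were lower than controls fed HFD, at 69.5% (-0.53, SE 0.051, adjusted p = 3.54e-10), whereas with chow the difference was -0.11 (SE 0.054, adjusted p = 0.115), which passed without KO_chow replicate 1 (adjusted p = 0.034) and with the length and GC trend removed (-0.15, adjusted p = 0.0308). The interaction was -0.41 (SE 0.074, adjusted p = 4.49e-05).

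Nqo1 (ENSMUSG00000003849) encodes a quinone reductase that is widely used as a readout of NRF2 activity, and its RNA was scarce in these livers, with 117 to 296 counts per library. It was at 7.87, 8.16 and 8.53 CPM in controls fed chow, 8.80, 12.1 and 12.7 CPM in controls fed HFD, 7.35, 7.56 and 7.21 CPM in KO livers fed chow and 6.58, 7.41 and 5.94 CPM in KO livers fed HFD. Control livers fed HFD were the highest and the most spread, with 1 library close to the chow controls. Nqo1 rose with HFD in controls (0.46, SE 0.12, adjusted p = 0.00193) and was lower in KO livers fed HFD (-0.77, SE 0.12, adjusted p = 5.78e-06). Neither the KO difference with chow (-0.15, SE 0.13, adjusted p = 0.403) nor the diet difference in KO livers (-0.15, SE 0.13, adjusted p = 0.395) passed. The interaction was -0.62 (SE 0.18, adjusted p = 0.00731).

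Hmox1 (ENSMUSG00000005413) encodes haem oxygenase 1, which breaks haem down to biliverdin, iron and carbon monoxide, and which macrophages that clear red cells express strongly. It was at 9.32, 12.3 and 10.5 CPM in controls fed chow and 20.5, 23.7 and 22.5 CPM in controls fed HFD. KO livers had 26.8, 26.1 and 24.5 CPM with chow and 15.2, 17.9 and 17.0 CPM with HFD. The 4 groups did not overlap, and the order was KO fed chow, control fed HFD, KO fed HFD, control fed chow. Hmox1 was 2.40-fold higher in KO livers fed chow (1.27 on the log2 scale, SE 0.087, adjusted p = 8.35e-14) and lower in KO livers fed HFD, at 74.9% (-0.42, SE 0.082, adjusted p = 0.00013). With HFD it rose 2.08-fold in controls (1.06, SE 0.088, adjusted p = 6.4e-12) and fell in KO livers (-0.63, SE 0.081, adjusted p = 1.13e-07). The interaction, -1.68 (SE 0.12, adjusted p = 3.5e-13), was the largest in size among the 10 genes.

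Markers of several cell types differed between the groups, those of macrophages among them. The summed level of 10 macrophage markers was 173.0 to 179 CPM in controls fed chow, 184.5 to 191 in controls fed HFD, 419 to 430.4 in KO livers fed chow and 259 to 265 in KO livers fed HFD. None of the 10 was at 0 in a group. All 10 were higher in KO livers fed chow, where 15.8% of all tested genes were higher. In KO livers fed HFD 8 were higher and 0 lower, beside 16.7% and 15.6% of all genes. With HFD 3 rose in controls and all 10 fell in KO livers, beside 18.8% and 18.1% of all genes. Hmox1 and this sum were thus both highest in KO livers fed chow, while with HFD KO livers had more of the markers and less Hmox1 than controls. The summed level of 5 erythroid markers was 184 to 193 CPM in controls fed chow and 114 to 120.1 in controls fed HFD. In KO livers it was 222 to 229 CPM with chow and 146 to 163 CPM with HFD. On either diet 4 of the 5 were higher and 1 lower in KO livers. Of all genes 15.8% were higher and 15.3% lower with chow, and 16.7% and 15.6% with HFD. Markers of neutrophils and bile duct cells were also highest in KO livers fed chow. The sum of 6 neutrophil markers was 14.1 to 15.0 CPM in controls fed chow and 0.54 to 1.03 in controls fed HFD. In KO livers it was 39.0 to 43.4 CPM with chow and 4.97 to 5.53 CPM with HFD. Of the 6, 5 were higher in KO livers on either diet, beside 15.8% of all genes with chow and 16.7% with HFD. In controls fed HFD 1 of the 6 was at 0. The sum of 5 cholangiocyte markers was 51.7 to 58.0 CPM in controls fed chow and 48.3 to 51.0 in controls fed HFD. In KO livers it was 163 to 176 CPM with chow and 32.5 to 33.9 CPM with HFD. Of the 5, 2 were higher in KO livers fed chow and 2 lower in KO livers fed HFD, beside 15.8% and 15.6% of all genes. Sums of 6 stellate and 5 endothelial markers were lowest in controls fed chow, at 150.5 to 158 and 103 to 108.5 CPM. In controls fed HFD they were 214.0 to 227 and 126 to 129 CPM. KO livers had 189 to 194 and 122 to 126 CPM with chow, and 200.5 to 213 and 125 to 131 CPM with HFD. With HFD in controls, 5 of the 6 stellate and 3 of the 5 endothelial markers were higher and 0 lower, beside 18.8% and 18.9% of all genes. In KO livers fed chow 3 and 4 were higher and 0 lower, beside 15.8% and 15.3%. In KO livers fed HFD 0 and 2 were higher and 2 and 1 lower, beside 16.7% and 15.6%. The part of any of these cell types in the Hmox1 differences was not tested.

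**Figure D3:**
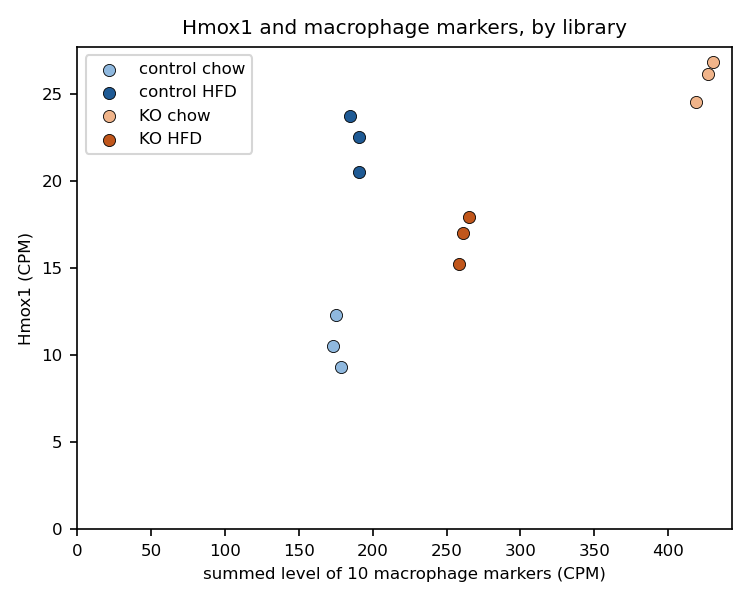
Hmox1 level against the summed level of 10 macrophage markers in each of the 12 libraries, both in CPM on linear axes from 0. KO livers fed chow are high on both axes, and control livers fed HFD lie near the marker level of control livers fed chow (184.5 to 191 against 173.0 to 179 CPM) at a higher Hmox1 level.

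Counted by comparison, HFD in controls had 6 of the 10 genes higher (Nfe2l2, Gclc, Gss, Nqo1, Srxn1, Hmox1) and Gsr lower, where 18.8% of all tested genes were higher and 18.9% lower. HFD in KO livers had 2 higher (Nfe2l2, Srxn1) and 4 lower (Gclc, Gss, Txnrd1, Hmox1), against 18.5% and 18.1% of all genes. Gss in that comparison was at -0.13 (SE 0.043, adjusted p = 0.016), which was lost without KO_chow replicate 2 or KO_HFD replicate 3 (0.058 and 0.0988). The Gss call was also lost with the length and GC trend removed and the replicate number as a block. The number of genes called was 3 in all without KO_chow replicate 2 or without KO_HFD replicate 3. The interaction was below 0 for 7 genes and above 0 for none, against 14.7% and 15.2% of all genes, with a median of -0.30. With the length and GC trend removed, 6 were below 0 and 3 above, where 33.1% of all genes passed in either direction. HFD in controls then had 6 higher and 3 lower, where 40.5% of all genes passed. These comparisons share libraries: the control livers fed HFD enter the diet comparison in controls, the KO comparison with HFD and the interaction, so that their counts are not independent. Over the 10 genes, every KO library fed HFD lay below every control library fed HFD for 6, the same 6 that were called lower. This gap and the calls rest on the same libraries, and 21.3% of all genes had such a gap. For Gsr, which was not called, every KO library fed HFD lay above every control library fed HFD.

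Set against controls fed chow, KO livers fed HFD differed in 3 of the 10 genes, where 32.2% of all genes passed. Gclc was lower, at 78.1% (-0.36, SE 0.024, adjusted p = 2.37e-14), and Hmox1 was higher, 1.56-fold (0.64, SE 0.093, adjusted p = 1.16e-06). Gclm was lower by a small step (-0.08, SE 0.030, adjusted p = 0.0375) that was lost without control_chow replicate 2 or 3 (0.0949 and 0.124), control_HFD replicate 1 or 2 (0.0554 and 0.0516) or KO_HFD replicate 2 or 3 (0.17 and 0.132), with no count filter (0.108) and with the length and GC trend removed (0.853). The differences of Nfe2l2 (-0.02, SE 0.037), Srxn1 (0.06, SE 0.053) and Gss (0.05, SE 0.043) did not pass (adjusted p = 0.737, 0.407 and 0.455). Nqo1 was at -0.30 (SE 0.13, adjusted p = 0.0704), and passed without control_HFD replicate 1 or KO_HFD replicate 2 (0.0408 and 0.0427) and with the length and GC trend removed (-0.33, adjusted p = 0.0442).

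Fold changes between KO and control livers fed HFD went with transcript length across 14762 genes, longer transcripts being lower in KO livers (Spearman's rho -0.248, genes not being independent). Elsewhere rho was -0.231 for the interaction, -0.139 for HFD in KO livers and 0.129 for HFD in controls. It was -0.114 for KO on HFD against control on chow and 0.044 for KO on chow. After removal of the length and GC trend of every library, Nfe2l2, Gclc, Nqo1, Srxn1 and Hmox1 stayed lower in KO livers fed HFD, at -0.33, -0.57, -0.76, -0.45 and -0.43. Gclm, Gsr, Keap1 and Txnrd1 were then higher, at 0.11, 0.17, 0.15 and 0.09 (adjusted p = 0.00268, 0.000461, 0.0226 and 0.0248), so that 5 genes were lower and 4 higher, where 35.9% of all genes passed. In the interaction Keap1, Gclm and Gsr were then above 0, at 0.21, 0.20 and 0.15 (adjusted p = 0.0282, 0.00025 and 0.0299), and with HFD in controls Gclm and Txnrd1 were lower, both at -0.12 (adjusted p = 0.00103 and 0.00316).

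The proteins that partner NRF2 or mark it for degradation were first among the neighbouring lists. Of 10 such genes 5 were lower and 3 higher in KO livers fed HFD, with a median of -0.13, where 15.6% of all tested genes were lower and 16.7% higher. With the length and GC trend removed 3 were lower and 4 higher, with a median of 0.01, where 35.9% of all genes passed. Sqstm1, whose protein p62 binds KEAP1 and sends it to autophagy, was at 536 ± 16.9 against 620.4 ± 13.1 CPM (-0.21, adjusted p = 7.49e-08). Nfe2l1, which encodes the related factor NRF1, was at 178 ± 4.84 against 208 ± 3.40 CPM (-0.22, adjusted p = 1.33e-06), having risen in controls with HFD from 139.7 ± 3.18 CPM (0.58, adjusted p = 4.56e-16). Gsk3b, a kinase that marks NRF2 for a KEAP1-independent ligase, was lower by -0.30 on the log2 scale (adjusted p = 1.01e-05, and 0.128 with the trend removed), and Rbx1, the RING subunit of the CUL3 ligase, was higher by 0.30 (adjusted p = 5.65e-05). In controls 6 of the 10 rose with HFD and 0 fell, beside 18.8% and 18.9% of all genes.

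Other enzymes and transporters under NRF2 were mostly lower in KO livers. Of 15 listed genes 13 were tested, Slc7a11 and Gpx2 having too few counts, and 7 were lower and 2 higher with HFD, with a median of -0.21, beside 15.6% and 16.7% of all genes. Osgin1, an oxidative stress response gene, was at 74.6 ± 1.55 against 126 ± 3.96 CPM (-0.76, SE 0.035, adjusted p = 2.81e-18), and it was also lower with HFD than with chow in controls, where it stood at 199 ± 4.81 CPM (-0.66, adjusted p = 1.05e-17). Aox1, aldehyde oxidase, was at 133 ± 2.52 against 194 ± 3.68 CPM (-0.54, adjusted p = 1.44e-14) and Abcc3, an exporter of conjugates into blood, at 323 ± 8.49 against 423 ± 8.73 CPM (-0.39, adjusted p = 1.69e-13). Ugdh, which makes the donor for glucuronidation, was at 186 ± 8.82 against 245 ± 9.23 CPM (-0.40, adjusted p = 9.07e-12). On chow 7 of the 13 were lower in KO livers and 0 higher, beside 15.3% and 15.8% of all genes, with Aox1 at -0.47 and Abcc3 at -0.43. The 2 higher with HFD were Prdx1 and Txn1, named here after their values were seen, at 0.16 and 0.17.

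Gsr, Txnrd1 and Nqo1 consume NADPH. A list of 6 genes held the NADPH-making enzymes G6pdx, Pgd, Me1 and Idh1 and the pentose phosphate enzymes Tkt and Taldo1, which make none. In KO livers fed HFD 3 of the 6 were lower (Pgd, Me1, Tkt) and 1 higher, with a median of -0.23, beside 15.6% and 16.7% of all genes. With the length and GC trend removed 2 were lower and 1 higher, where 35.9% of all genes passed. Malic enzyme Me1 was at 223 ± 9.18 against 304 ± 5.31 CPM (-0.45, adjusted p = 1.64e-13), and was also lower with chow (-0.47, adjusted p = 4.68e-14). Of the pentose phosphate enzymes, transketolase Tkt was lower by -0.32 (adjusted p = 1.12e-09) and Pgd by -0.21 (adjusted p = 0.000459, and 0.106 with the length and GC trend removed). Idh1, cytosolic isocitrate dehydrogenase, was higher by 0.08 (adjusted p = 0.0139), a call lost without KO_HFD replicate 1 or 2 (0.0679 and 0.0808).

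A further list held genes of methionine and cysteine metabolism and of glutathione turnover. Of 14 listed genes 13 were tested, and 8 were higher and 1 lower in KO livers fed HFD, with a median of 0.14, beside 16.7% and 15.6% of all genes. The 1 lower was Ggct, which acts in glutathione turnover, at -0.46 (adjusted p = 0.000396), named here after its value was seen. Ahcy, which frees homocysteine, was at 1637 ± 18.5 against 1273 ± 11.8 CPM (0.36, adjusted p = 2.85e-17). Gnmt, the methyl sink of liver, was at 1751 ± 43.0 against 1400 ± 26.7 CPM (0.32, adjusted p = 1.01e-14), Cdo1, which commits cysteine to taurine and sulfate, at 1998 ± 41.5 against 1608 ± 16.9 CPM (0.31, adjusted p = 7.41e-16) and Cbs at 705 ± 16.1 against 595 ± 6.15 CPM (0.24, adjusted p = 3.61e-10). In controls Cth, which releases cysteine from cystathionine, fell with HFD from 671 ± 6.89 to 335 ± 5.77 CPM (-1.0, adjusted p = 2.74e-26), and Gnmt fell by -0.51 on the log2 scale (adjusted p = 1.84e-20). On chow 6 of the 13 were lower and 4 higher in KO livers, beside 15.3% and 15.8% of all genes, with Cth at 387 ± 3.47 CPM (-0.79, adjusted p = 4.03e-23).

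Peroxide and thioredoxin enzymes outside the 10 genes were higher for 9 of 15 and lower for 2 in KO livers fed HFD, with a median of 0.22, beside 16.7% and 15.6% of all genes. With chow 10 were lower and 2 higher, with a median of -0.16, beside 15.3% and 15.8%. Sod1, superoxide dismutase, was at 787 ± 20.6 against 632 ± 14.9 CPM with HFD (0.32, adjusted p = 1.05e-11) and lower with chow (-0.20, adjusted p = 2.82e-07). Txn2, mitochondrial thioredoxin, went from 0.31 with HFD (adjusted p = 1.29e-09) to -0.18 with chow (adjusted p = 2.97e-05), and Prdx5 from 0.24 (adjusted p = 1.34e-07) to -0.16 (adjusted p = 7.97e-05). Txnip, an inhibitor of thioredoxin that responds to glucose, was at 122 ± 6.88 against 83.5 ± 0.837 CPM with HFD (0.55, adjusted p = 3.29e-12) and had risen with HFD in controls from 31.5 ± 0.741 CPM (1.41, adjusted p = 6.86e-22). The interaction was above 0 for 10 of the 15 and below 0 for 3, beside 15.2% and 14.7% of all genes, with a median of 0.32.

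**Figure D4:**
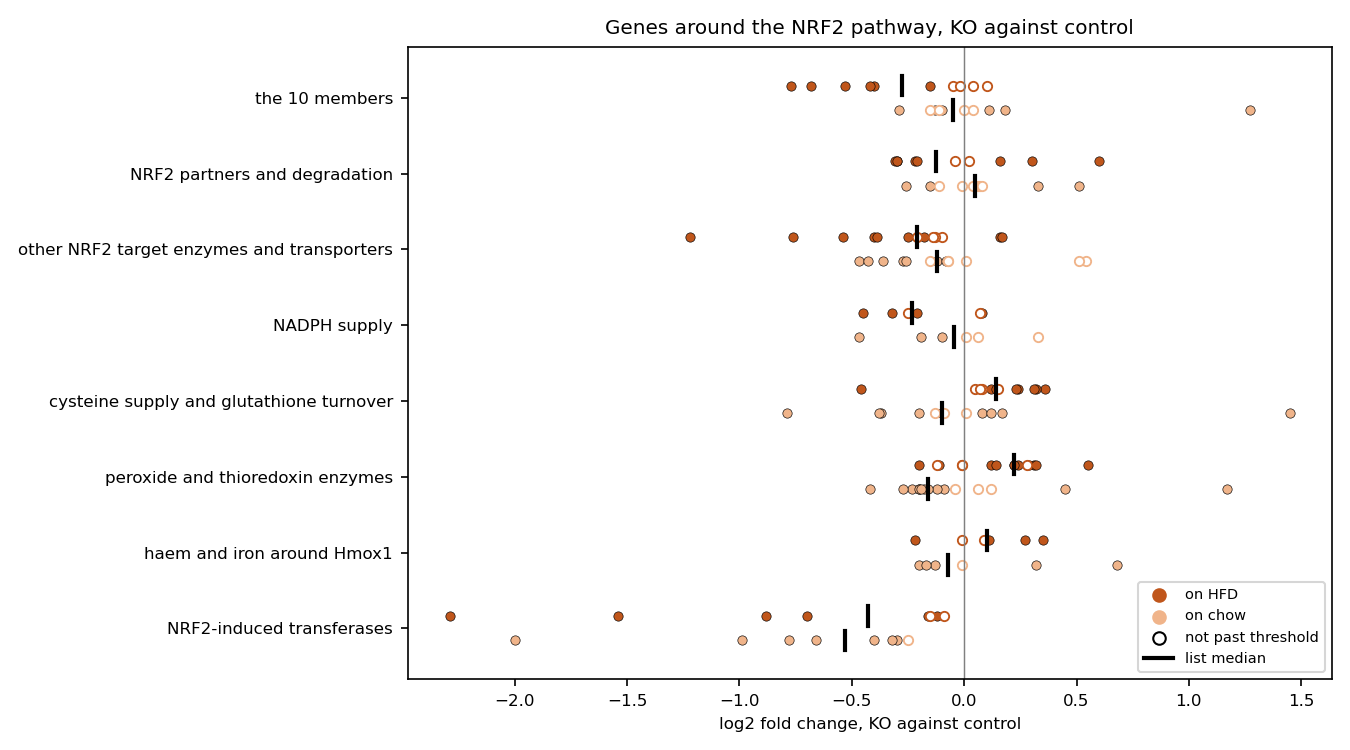
Log2 fold changes of KO against control livers for the 10 genes and for 7 lists of neighbouring genes, with HFD (dark) and with chow (light). Filled circles passed an adjusted p of 0.05, open circles did not, and vertical bars are medians. The medians with HFD run from -0.43 for the transferases to 0.22 for peroxide and thioredoxin enzymes, whose median with chow is -0.16.

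Around Hmox1, of 6 genes of haem and iron handling 3 were higher and 1 lower in KO livers fed HFD, with a median of 0.10, beside 16.7% and 15.6% of all genes. Hmox2, the constitutive haem oxygenase, was at 39.9 ± 0.724 against 31.4 ± 1.07 CPM with HFD (0.35, adjusted p = 5.22e-06) and was higher with chow too (0.32, adjusted p = 1.97e-05). Alas1, the rate-limiting enzyme of haem synthesis in liver, was at 449 ± 6.5 against 373 ± 5.09 CPM with HFD (0.27, adjusted p = 3.26e-10) and at 414 ± 3.70 against 258 ± 5.70 CPM with chow (0.68, adjusted p = 1.07e-20). The ferritin heavy chain gene Fth1 was lower by -0.22 with HFD (adjusted p = 1.42e-11) and rose by 0.28 with HFD in controls (adjusted p = 1.65e-14). Blvrb, a biliverdin reductase, was higher by 0.11 with HFD (adjusted p = 0.0238), which was lost without control_HFD replicate 3 or KO_HFD replicate 1 or 3 (0.132, 0.0518 and 0.077).

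Of 8 transferases known as NRF2 targets, 6 were lower and 0 higher in KO livers fed HFD and 7 lower and 0 higher with chow, with medians of -0.43 and -0.53, where 15.6% and 15.3% of all genes were lower. Gstm3 was at 30.5 ± 0.504 against 88.5 ± 2.96 CPM with HFD (-1.54, adjusted p = 7.75e-22) and Gstm2 at 54.4 ± 3.17 against 100.4 ± 6.58 CPM (-0.88, adjusted p = 9.24e-17). The scarce Gsta1 was at 1.12 ± 0.23 against 5.47 ± 0.801 CPM (-2.29, adjusted p = 7.02e-11), and Gsta2 was lower by -0.70 (adjusted p = 1.34e-08). With HFD in controls 2 of the 8 were higher (Gsta1 at 1.40, Gstm2 at 0.43) and 4 lower, beside 18.8% and 18.9% of all genes. Among the 4, Gsta2 fell from 39.6 ± 2.23 to 18.7 ± 1.48 CPM (-1.08, adjusted p = 4.53e-15) and Gstm1 by -0.23 (adjusted p = 3.98e-11). Transferases of a class, Fth1, Prdx1, Txn1 and Rbx1 have close paralogs or processed pseudogenes, and the sources used here do not say where reads they share were assigned, so their single values are uncertain.

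Genes whose level followed Gclc, Nqo1 or Hmox1 most closely over the 12 libraries were picked by Pearson's r of log2 CPM among 9057 genes. These had a mean of at least 5 CPM, and names of gene models or clones, such as Gm or Rik names, were left out. The ranking is a description, since libraries of a group share diet and genotype. For Gclc these were Dsp (r = 0.991), Tor3a (0.985) and Gstm2 (0.983). Dsp, which encodes desmoplakin, was at a mean of 76.7 CPM in controls fed chow, 90.4 in controls fed HFD, 63.7 in KO livers fed chow and 59.7 in KO livers fed HFD. For Nqo1 they were Ugdh (0.94), Trim2 (0.916) and Washc2 (0.916), and for Hmox1 S100a11 (0.949), Hsp90b1 (0.948), an endoplasmic reticulum chaperone, and Hip1 (0.947). Among the 10 genes themselves r was 0.97 between Nfe2l2 and Srxn1, 0.89 between Nfe2l2 and Gclc, 0.82 between Nfe2l2 and Nqo1 and 0.15 between Nfe2l2 and Hmox1. With the remaining genes, r of Nfe2l2 was 0.42 for Gclm, 0.41 for Gss, -0.17 for Keap1, -0.49 for Txnrd1 and -0.84 for Gsr.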

How the data were processed

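Total liver RNA, harvested by TRIzol, was sequenced on standard Illumina libraries, per the labels' protocols. The authors deposited raw counts, 1 row per Ensembl ID and 1 column per library, as whole numbers and unequal column totals show. The submitters' processing notes name Bowtie 0.12.2 and build mm8. The sources used here do not give the counting program, annotation or strand setting. Symbols came from GENCODE M21 (53274 of 53465 IDs matched), with transcript length, GC content and exon length. Promoter coordinates belong to GRCm38.p6, not to the build that the submitters' notes name, and the build behind the counts is uncertain.

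Genes were filtered with edgeR 4.0.16 filterByExpr, scaled by TMM and fitted as 4 groups with glmQLFit (R 4.3.3); the model was tested on simulated data. SE is the log2 fold change over the square root of F. An exact permutation test of 3 against 3 libraries cannot go below p = 0.1, so none is given. Libraries of a group differed by more than counting noise (median chi-square 1.59 to 2.34 times its expectation), and each counts as 1 replicate. Depth was 18215008 to 22378180 counts. Alternatives were DESeq2 1.42.0 size factors and Wald test, upper quartile scaling, no filter, a filter of 5 CPM, limma-voom (limma 3.58.1), fits of the groups compared, the replicate number as a block, removal of the length and GC trend of every library, and leaving out each library. The 10 genes and the lists were chosen with earlier results of these data known. Named list genes were up to 4 per list with the smallest p between KO and control fed HFD and up to 2 for HFD in controls.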

Additional observations from a re-analysis of the deposited data

Results flagged for a closer look

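For 7 of the 10 genes the knockout difference was not the same on the 2 diets, by the interaction term of edgeR's model adjusted over 14778 genes. All 7 terms were below 0. Of all tested genes, 14.7% passed below 0 and 15.2% above. The knockout difference with HFD minus that with chow was -0.27 for Nfe2l2 (adjusted p = 0.000141), -0.39 for Gclc (3.24e-11), -0.33 for Gss (5.44e-05), -0.62 for Nqo1 (0.00731), -0.13 for Txnrd1 (0.0203), -0.41 for Srxn1 (4.49e-05) and -1.68 for Hmox1 (3.5e-13), all on the log2 scale. For Hmox1 and Gss the KO libraries lay above the controls fed chow and below them with HFD, without overlap. The term of Txnrd1 passed neither without control_chow replicate 2 or 3 (adjusted p = 0.0666 and 0.0519) nor with the length and GC trend removed (0.95). With that trend removed, 6 of the 10 terms passed below 0 and 3 above, where 33.1% of all genes passed in either direction. Groups of 3 libraries are too small for the test of single outlying samples.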

How the results depend on the processing

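Of 35 calls of the 10 genes over 6 comparisons, 26 held under all 22 alternative settings chosen at the start, and those lost are given with the genes above. The replicate number was no pairing: deviations of same-numbered libraries correlated at -0.132 to 0.158 over 18 pairs, and as a block it left 6 of the 10 genes called in KO livers on HFD, 6 on chow and 7 in the interaction and 6 in place of 7 for HFD in controls, Gsr being lost (adjusted p = 0.057). Leaving out a library gave 5 to 7 called genes in KO livers on HFD, 5 to 7 on chow, 6 to 7 for HFD in controls, 3 to 6 for HFD in KO livers, 2 to 3 for KO on HFD against control on chow and 6 to 7 in the interaction.
With the length and GC trend removed, without and with the block, the sign turned for Gclm (0.115 and 0.114) and Txnrd1 (0.0893 and 0.0891) in KO livers on HFD and for the interaction of Txnrd1 (0.0046 and 0.0045) and Pld1 (0.109 and 0.107); for the first pair the turned values passed. The other turns were of values near 0 that passed in neither. Keap1 between genotypes on chow was 0.0072 with the 5 CPM filter and -0.020 to 0.025 without a library (0.012 between). Between diets, without a library, Keap1 was -0.053 to 0.0061 in controls and -0.00078 to 0.050 in KO livers, Txnrd1 -0.034 to 0.0059 in controls and Gclm -0.0071 to 0.038 in KO livers (-0.0014 with the 5 CPM filter). Gsr in KO on HFD against control on chow was 0.00062 with DESeq2 size factors, 0.0071 with no filter, 0.00071 with DESeq2's test and -0.018 to 0.021 without a library (0.00076, 0.0011, 0.0015 and 0.017 between). The Pld1 interaction was -0.158 to 0.113 without a library (0.0041, 0.045 and 0.066 between).
The variation between libraries was small (a common coefficient of 3.95%). In a setting chosen after seeing the data, with every gene's variation set to 20%, the genes called fell to 534 for KO on HFD, 931 for KO on chow, 1194 for HFD in controls, 1102 for HFD in KO livers, 923 for KO on HFD against control on chow and 510 for the interaction. Of the 10 genes 0, 1, 1, 0, 0 and 1 were then called, Hmox1 each time.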
